A study of Mus musculus with 26 samples.

Results

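The 6 genes described here make, recycle and regulate tetrahydrobiopterin (BH4), and were measured in the dorsal root ganglia of mice, where the cell bodies of sensory neurons lie. They were listed by name for their roles in the pathway: *Gch1*, *Pts* and *Spr* for synthesis, *Pcbd1* and *Qdpr* for recycling, and *Gchfr* for regulation. All 6 were found among the 55401 genes of the deposited tables, and all 6 passed the filter on low counts in every comparison.

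BH4 is a cofactor that the aromatic amino acid hydroxylases, the nitric oxide synthases and alkylglycerol monooxygenase need. GTP cyclohydrolase (*Gch1*) starts its synthesis from GTP and is the rate-limiting step, 6-pyruvoyltetrahydropterin synthase (*Pts*) makes the intermediate, and sepiapterin reductase (*Spr*) completes it. After use, pterin-4a-carbinolamine dehydratase (*Pcbd1*) and dihydropteridine reductase (*Qdpr*) return it to its active form, while the GTP cyclohydrolase feedback regulator (*Gchfr*) couples the first enzyme to the levels of BH4 and phenylalanine. In sensory ganglia the pathway is known for its link to pain after nerve injury.

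RNA came from ganglia L4 to L6, collected 2 to 4 h after lights on, in 26 libraries that fall into 10 groups. The aryl hydrocarbon receptor gene (*Ahr*) was to be deleted in conditional knockout (cKO) mice, Ahr f/f Thy1-CRE(ERT2/EYFP), in which the *Thy1* promoter, active mainly in neurons, drives a tamoxifen-activated Cre. Controls were Ahr fl/+, f/+ or fl/fl mice, and their labels name no Cre. In the first set both genotypes were 28 weeks old when given tamoxifen, on 5 days at 100 mg/kg. Their ganglia were taken 5 weeks later without surgery (naive, 3 mice per genotype) or a day after sciatic nerve crush (injured, 3 mice per genotype). A supplemental set held ganglia of 2 male mice per genotype, each sampled on the side of a sham operation 1 day earlier (ipsilateral) and on the opposite side (contralateral). It also held neurons, called semi-purified by the labels, from 3 female mice per genotype, 24 h after seeding. For these supplemental mice, age and tamoxifen timing are not given in the sources used here.

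Library totals were 20169388 to 23540375 counts for naive and injured ganglia, 39306414 to 58751270 for sham ganglia and 25299938 to 88180611 for neurons. CPM below are counts scaled by library size, with scaling factors set within each of these sets unless stated otherwise. *Ahr* itself was not lower in cKO libraries: it read 22.7 to 28.1 CPM against 18.9 to 23.9 in naive controls, 38.8 to 40.5 against 36.3 to 38.7 in injured controls, and overlapped in sham ganglia and neurons. A count over the whole gene does not check a deletion of some exons. *Thy1*, whose promoter drives the transgene, separated the genotypes in every set, with 1252 to 1416 CPM in naive cKO ganglia against 707 to 807 in naive controls. The injury gene *Atf3* stood at 526 to 770 CPM in crushed ganglia and at no more than 17.3 CPM in naive ones. All naive libraries were labelled female and read as female by *Xist* and Y-linked counts. The labelled sex was not what the transcripts showed in 2 libraries: injured control replicate 3 (labelled male) held 338 *Xist* and 2 Y-linked counts, and injured cKO replicate 2 (labelled female) held 0 and 1641. Injured cKO replicate 3 was labelled male and held 0 and 2417. By transcripts 2 of 3 injured cKO libraries were thus male, against 0 of 3 naive cKO libraries, so that sex and injury are partly confounded in cKO mice.

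Promoters of all 6 genes, from 250 bases before to 50 after the start site, were matched in RefSeq (GRCm38.p6). Printed are 3: *Gch1*, as the gene that rose after injury, and *Qdpr* and *Gchfr*, as examples that hold the core sequence GCGTG bound by AhR with its partner Arnt. The *Gch1* window is chr14:47189364-47189663 on the minus strand, with the core TGACG of the cyclic AMP response element and the CCAAT box in capitals. The *Qdpr* window, chr5:45450180-45450479 on the minus strand, and the *Gchfr* window, chr2:119167538-119167837 on the plus strand, have GCGTG or its reverse complement in capitals.
Gch1: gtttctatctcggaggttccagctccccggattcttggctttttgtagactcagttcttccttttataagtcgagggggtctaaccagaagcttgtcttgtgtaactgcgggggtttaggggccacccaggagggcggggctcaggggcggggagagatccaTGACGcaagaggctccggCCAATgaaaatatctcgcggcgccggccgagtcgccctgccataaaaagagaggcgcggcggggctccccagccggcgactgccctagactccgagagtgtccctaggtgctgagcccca
Qdpr: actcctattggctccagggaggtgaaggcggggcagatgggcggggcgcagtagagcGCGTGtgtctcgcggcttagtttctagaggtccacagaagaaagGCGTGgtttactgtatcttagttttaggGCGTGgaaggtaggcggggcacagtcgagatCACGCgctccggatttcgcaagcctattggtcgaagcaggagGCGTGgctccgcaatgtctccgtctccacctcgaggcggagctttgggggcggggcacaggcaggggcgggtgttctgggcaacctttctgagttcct
Gchfr: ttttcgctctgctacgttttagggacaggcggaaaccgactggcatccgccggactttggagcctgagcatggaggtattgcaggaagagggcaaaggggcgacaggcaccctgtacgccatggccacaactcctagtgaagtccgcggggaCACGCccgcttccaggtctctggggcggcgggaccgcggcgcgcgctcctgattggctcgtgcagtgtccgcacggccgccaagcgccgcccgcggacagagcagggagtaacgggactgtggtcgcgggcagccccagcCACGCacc

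The *Gch1* window held no GCGTG on either strand, and neither did those of *Pts* and *Spr*. The *Qdpr* window held 5 matches, and those of *Gchfr* and *Pcbd1* held 2 each. Of all 32851 RefSeq promoter windows of this length, 32.4% held at least 1 GCGTG on either strand. None of the 6 windows held the AP-1 motif TGANTCA (in 7.81% of all windows), the full cyclic AMP response element TGACGTCA (1.79%) or the STAT motif TTCNNNGAA (8.3%). In the *Gch1* window TGACG began 88 bases and CCAAT 70 bases before the start site. Such an element beside a CCAAT box is known from the promoter of this gene. TGACG is contained in the full element, and both short motifs were searched after the *Gch1* sequence had been seen. TGACG was in 20.8% and CCAAT in 37.4% of all windows. Of the other 5 windows none held TGACG, whereas those of *Gchfr* and *Qdpr* held CCAAT as its reverse complement, which is not capitalized above. A match describes letters and not binding.

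The 6 genes lay at unlike levels. Per kilobase of exon, mean CPM in naive control ganglia were 41.6 for *Qdpr*, 39.9 for *Pcbd1*, 15.3 for *Spr*, 5.68 for *Pts*, 1.21 for *Gch1* and 0.917 for *Gchfr*. The recycling enzymes thus stood highest and the rate-limiting enzyme and its regulator lowest. *Qdpr* and *Pcbd1* did not differ beyond the spread between mice on this scale, nor did *Gch1* and *Gchfr*. The deposited FPKM divides by the whole gene span, introns included, and there *Spr* (7.35) and *Pcbd1* (6.74) came before *Pts* (5.03) and *Qdpr* (4.73). In naive and injured ganglia *Gchfr* had 7 to 22 counts per library, which leaves its differences loosely bounded. *Qdpr* (chr5:45434021-45450236) shares its position with the antisense gene Gm42413, whose counts came to 79.7% of its own, so its values are uncertain. None of *Gchfr*, *Pts*, *Spr* and *Pcbd1* shares a position with another counted gene, and the pseudogene inside *Gch1* had 0.0451% of its counts.

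**Figure D1:**
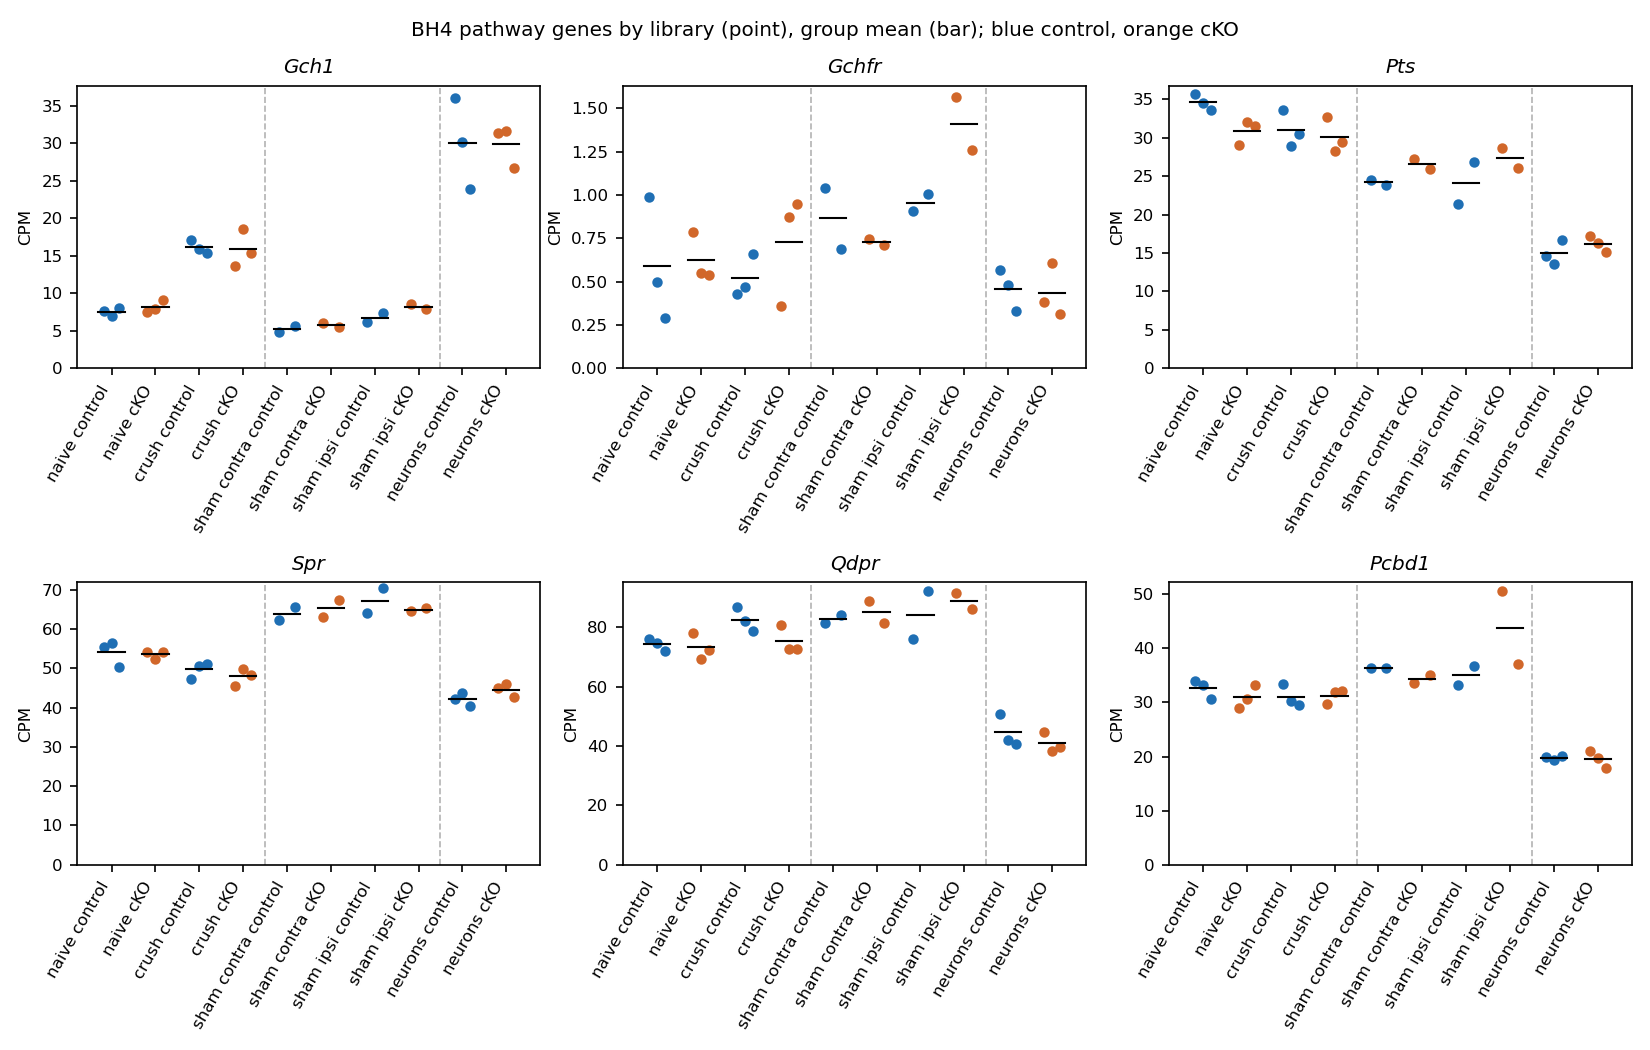
CPM of the 6 genes in each of the 26 libraries (points) with the group mean (bar), by group; dashed lines separate naive and injured ganglia, sham ganglia and cultured neurons, which were scaled separately. *Gch1* stands higher in injured than in naive ganglia and highest in cultured neurons, where the other 5 stand lowest.

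The first question was what a nerve crush does to these genes within 1 day. *Gch1* (ENSMUSG00000037580.10, chr14:47153895-47189413), the rate-limiting enzyme, rose about 2-fold in both genotypes, and no other member passed the test in either. In control mice *Gch1* stood at 7.64, 6.96 and 8.02 CPM in naive and at 17.1, 15.9 and 15.4 CPM in crushed ganglia. In cKO mice it stood at 7.48, 7.83 and 9.10 CPM in naive and at 13.6, 18.6 and 15.4 CPM in crushed ganglia. Every crushed library lay above every naive one, whichever the genotype. The log2 fold change was 1.10 ± 0.12 (SE) in control mice, a 2.14-fold rise (edgeR quasi-likelihood test, Benjamini-Hochberg adjusted p = 6.5e-05). It was 0.96 ± 0.12 in cKO mice, a 1.95-fold rise (edgeR adjusted p = 0.000187).

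Thus 1 of 6 members was called in control mice, where 21.6% of the 21261 genes tested were called, 12.9% as higher and 8.73% as lower. Likewise 1 of 6 was called in cKO mice, where 18.6% of genes were called, 10.7% as higher and 7.89% as lower. The median log2 fold change of the 6 genes was -0.10 in control and 0.03 in cKO mice, beside -0.02 and -0.005 over all genes. Without injured control replicate 3, the *Gch1* log2 fold change in control mice was 1.13 (edgeR adjusted p = 0.00024). By transcripts all 6 of these control libraries read as female. Without injured cKO replicate 2 the log2 fold change was 0.82 in cKO mice (edgeR adjusted p = 0.000622), and with the sex read from transcripts as a covariate it was 0.74 (edgeR adjusted p = 0.0116). Leaving out replicate 2 keeps 1 male library in that group, so the covariate is the fit that bears on sex there. In bulk tissue, a change in RNA per cell and a change in the share of cells that express a gene cannot be told apart. The 6 macrophage markers summed to 118 to 152 CPM in naive and 124 to 146 CPM in injured libraries, and none was called in either genotype. The 6 neuron markers summed to 5660 to 6760 and 5650 to 6830 CPM. Of the markers of all cell types, those called after crush in control mice were the satellite glia genes *Kcnj10* (0.33) and *Fabp7* (-0.35), the endothelial gene *Cldn5* (-0.74) and the T cell gene *Cd3e* (-1.78), as log2 fold changes. In cKO mice the neuron gene *Rbfox3* (-0.26) and the red blood cell gene *Hba-a1* (-0.93) were called. Their part in the rise of *Gch1* was not tested.

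*Pts*, the next enzyme after *Gch1*, was not called. It stood at 35.6, 34.6 and 33.7 CPM in naive control ganglia and at 33.6, 28.9 and 30.4 CPM in crushed ones. All 3 crushed libraries lay below the naive ones, but the log2 fold change of -0.16 ± 0.07 missed the threshold (edgeR adjusted p = 0.136). In cKO mice it was -0.03 ± 0.07, with overlapping groups. Without injured control replicate 3 the control value was -0.15 (edgeR adjusted p = 0.26), and without injured cKO replicate 2 the cKO value was 0.0005 (edgeR adjusted p = 0.999).

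*Spr*, the last step of synthesis, was not called by edgeR at an adjusted p under 0.05. In cKO mice it read 54.2, 52.2 and 54.1 CPM naive and 45.6, 49.7 and 48.4 CPM crushed, without overlap. Its log2 fold change was -0.16 ± 0.06 there (edgeR adjusted p = 0.0745) and -0.12 ± 0.06 in control mice (edgeR adjusted p = 0.159). Without injured cKO replicate 2 the cKO value was -0.20 (edgeR adjusted p = 0.0662). On the FPKM scale limma put both past the threshold (-0.18 in control and -0.19 in cKO mice, adjusted p = 0.0247 and 0.0256).

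Among the recycling enzymes, *Qdpr* read 76.2, 74.8 and 72.0 CPM in naive control ganglia and 86.7, 82.3 and 78.9 CPM in crushed ones. These groups did not overlap, and the log2 fold change was 0.15 ± 0.06 (edgeR adjusted p = 0.101). With the replicate number as a block, *Qdpr* passed in control mice (edgeR adjusted p = 0.0427). Without injured control replicate 3 the log2 fold change was 0.19 (edgeR adjusted p = 0.0898). In cKO mice it was 0.04 ± 0.06. *Pcbd1* gave -0.07 ± 0.07 in control and 0.01 ± 0.07 in cKO mice, and the 95% intervals, -0.22 to 0.08 and -0.14 to 0.17, leave no room for a change of the size of that of *Gch1*. The regulator *Gchfr* gave -0.17 ± 0.46 and 0.22 ± 0.43. Its intervals, -1.17 to 0.82 and -0.72 to 1.16, include a fall of more than 1 on the log2 scale in control mice and a rise of more than 1 in cKO mice. Without injured control replicate 3 its control value was -0.38, and without injured cKO replicate 2 its cKO value was 0.07. The same libraries left out gave -0.03 in control and -0.01 in cKO mice for *Pcbd1*, -0.14 in control mice for *Spr* and 0.06 in cKO mice for *Qdpr*, none of them called by edgeR.

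**Figure D2:**
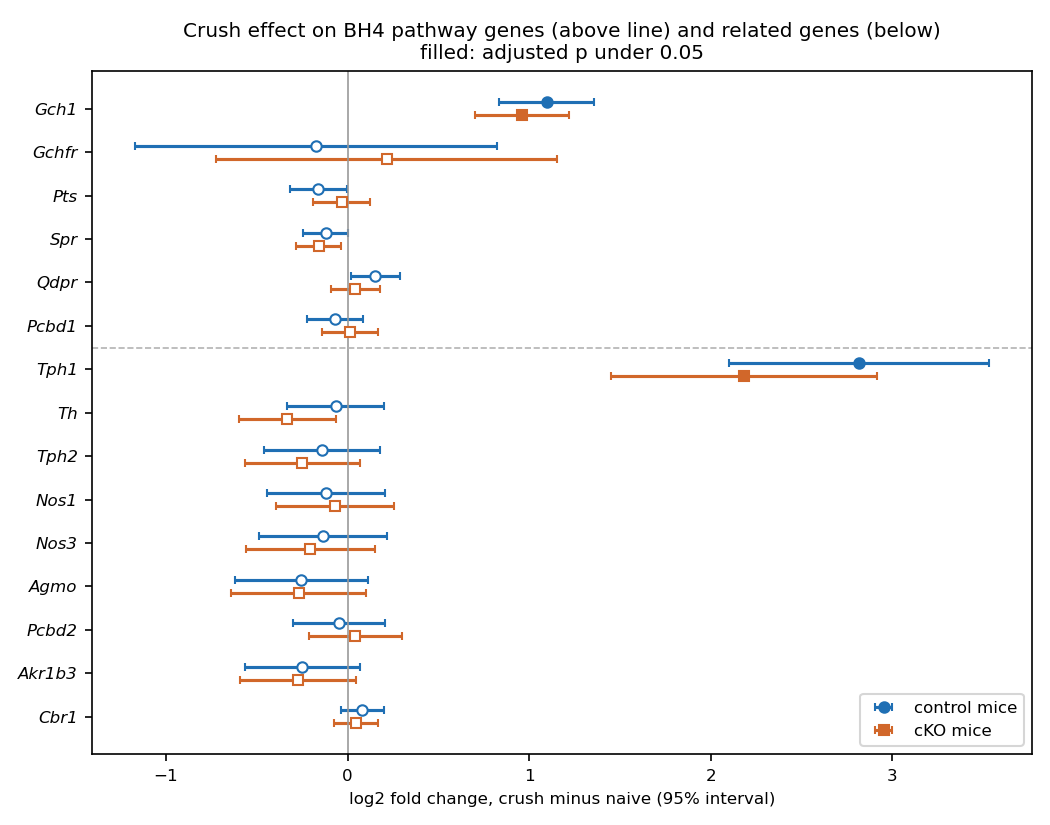
Log2 fold changes of crushed against naive ganglia with 95% intervals, in control (circles) and cKO mice (squares), for the 6 genes (above the line) and 9 related genes (below); filled symbols passed an adjusted p of 0.05. *Gch1* and *Tph1* are filled to the right in both genotypes, and no other symbol is filled.

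The related genes read here were 10 that recycle BH4, offer another route for its last step, or use it. Of these, 9 passed the filter in ganglia, and *Nos2* did not. In each genotype 1 of the 9 was called higher and 0 lower, beside 12.9% of all genes higher in control and 10.7% in cKO mice. The gene that rose in both was *Tph1*, tryptophan hydroxylase, which needs BH4 to make the precursor of serotonin. It had 0.674, 0.497 and 0.496 CPM in naive control and 6.16, 2.85 and 2.84 CPM in crushed control ganglia. In cKO mice it had 0.650, 0.504 and 0.628 CPM naive and 3.21, 2.52 and 2.42 CPM crushed. No crushed library overlapped a naive one, though control replicate 1 lay far above the other crushed libraries. The log2 fold change was 2.82 ± 0.33 in control mice (edgeR adjusted p = 0.000108) and 2.18 ± 0.34 in cKO mice (edgeR adjusted p = 0.00081). On the log2(FPKM + 0.1) scale, which shrinks changes of low genes, these were 0.95 and 0.69 (limma adjusted p = 0.00178 and 0.0112). Without injured control replicate 3 the control value was 3.01 (edgeR adjusted p = 0.000122), and without injured cKO replicate 2 the cKO value was 2.22 (edgeR adjusted p = 0.00311).

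The other 8 related genes tested did not pass. *Th*, tyrosine hydroxylase, gave -0.07 ± 0.12 in control and -0.33 ± 0.12 in cKO mice (edgeR adjusted p = 0.755 and 0.0844). The log2 fold changes in control and cKO mice were -0.12 ± 0.15 and -0.07 ± 0.15 for the neuronal nitric oxide synthase *Nos1*, -0.13 ± 0.16 and -0.20 ± 0.16 for the endothelial one, *Nos3*, and -0.26 ± 0.17 and -0.27 ± 0.17 for *Agmo*. *Akr1b3* gave -0.25 ± 0.14 and -0.27 ± 0.15. *Pcbd2*, a second carbinolamine dehydratase, gave -0.05 ± 0.12 and 0.04 ± 0.12. The antisense gene that shares its position had counts that came to 73.2% of its own, so its values are uncertain. *Cbr1*, a carbonyl reductase, gave 0.08 ± 0.05 and 0.05 ± 0.05, and *Tph2*, the other tryptophan hydroxylase, -0.14 ± 0.15 and -0.25 ± 0.15. The median log2 fold change over the 9 genes was -0.12 in control and -0.20 in cKO mice.

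Whether the crush response differed with genotype was tested directly, as the response in cKO minus that in control mice. For *Gch1* the difference was -0.14 ± 0.17 on the log2 scale, with a 95% interval of -0.50 to 0.23. It was -0.27 without injured cKO replicate 2 and -0.36 with the sex read from transcripts as a covariate. Leaving out each of the 12 libraries in turn gave -0.27 to -0.04, nearest to 0 without injured cKO replicate 1 (-0.04) and naive cKO replicate 3 (-0.05). By edgeR's quasi-likelihood test with Benjamini-Hochberg adjustment, 0 of 6 members were called, beside 0.0% of all genes, and 0 had an unadjusted p under 0.05, beside 2.95% of all genes. DESeq2 and limma on FPKM also called 0. For *Tph1* the difference was -0.64 ± 0.49, within an interval of -1.71 to 0.44. It was -0.82 without injured control replicate 3, -0.59 without injured cKO replicate 2 and -0.39 with the sex covariate. Without injured control replicate 1, the library with the highest *Tph1*, it was -0.16. These intervals include no difference, and they also include a *Gch1* response up to 0.50 smaller in cKO mice on the log2 scale.

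The genotypes were then compared within each setting. No member was called by edgeR in naive ganglia (0 of 6 against 0.00941% of all genes), in injured ganglia (0.00941%), in neurons (0.0%), or on the ipsilateral (0.00451%) or contralateral side (0.0%) of sham mice. DESeq2 and limma on FPKM also called 0 in each. An unadjusted p under 0.05 was reached by 1 member in naive ganglia, 1 on the sham ipsilateral side and 0 in the other 3 settings. The share of all genes at that level was 5.79% in naive ganglia, 2.72% in injured ganglia, 8.0% in neurons, and 7.59% and 5.23% on the ipsilateral and contralateral sides.

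For *Gch1* no genotype difference was detectable. The log2 difference, cKO minus control, was 0.11 ± 0.12 in naive ganglia (95% interval -0.16 to 0.38; 0.02 without naive cKO replicate 3) and -0.03 ± 0.11 in injured ganglia (-0.27 to 0.22). In injured ganglia it was -0.06 without injured control replicate 3, -0.15 without injured cKO replicate 2 and -0.25 with the sex read from transcripts as a covariate (edgeR adjusted p = 0.901). In neurons its CPM were 36.1, 30.2 and 23.9 in control and 31.4, 31.6 and 26.7 in cKO libraries, overlapping throughout. That difference was 0.00 ± 0.14 (-0.33 to 0.33). On the ipsilateral side of sham mice both cKO libraries lay above both controls, at 8.59 and 7.84 against 6.12 and 7.32 CPM, a difference of 0.29 ± 0.14 (edgeR adjusted p = 0.728) that ran from 0.15 to 0.41 as each mouse was left out.

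*Pts* was the member below 0.05 unadjusted in naive ganglia. Its 3 naive cKO libraries, at 29.0, 32.0 and 31.5 CPM, lay below the 3 controls given above. The log2 difference was -0.17 ± 0.07 (unadjusted p = 0.0382, edgeR adjusted p = 0.754). In sham contralateral ganglia *Pts* was instead higher in cKO libraries, with 27.3 and 25.9 CPM in cKO against 24.5 and 23.9 CPM in control libraries, a difference of 0.14 ± 0.12 (edgeR adjusted p = 0.906). In neurons it was 0.11 ± 0.10.

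*Pcbd1* was the member below 0.05 on the sham ipsilateral side. It read 50.5 and 37.2 CPM in cKO and 33.2 and 36.7 CPM in control ganglia, so that cKO mouse 1 stood apart. The log2 difference of 0.33 ± 0.13 (unadjusted p = 0.0422, edgeR adjusted p = 0.635) was 0.08 without that mouse. On the contralateral side both cKO libraries, at 33.5 and 35.1 CPM, lay just below the controls at 36.3 and 36.4 CPM. *Spr* and *Qdpr* differed between genotypes by at most 0.13 on the log2 scale in any of the 5 settings, with overlapping groups. For *Gchfr* the difference ran from -0.25 in sham contralateral to 0.57 in sham ipsilateral ganglia, with standard errors of 0.27 to 0.45 over the settings.

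**Figure D3:**
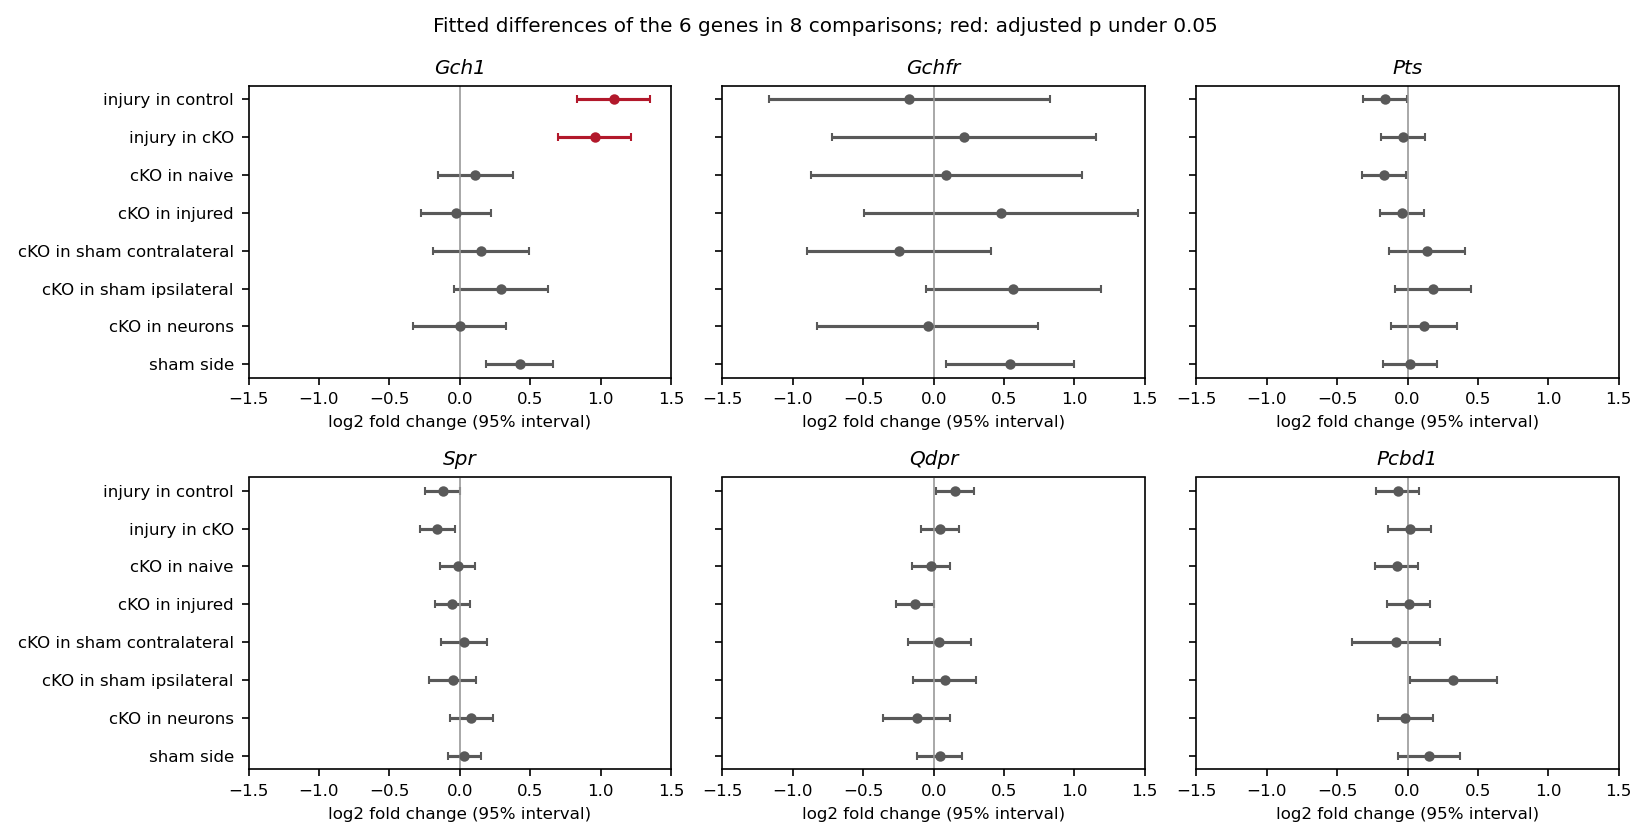
Log2 fold changes of the 6 genes with 95% intervals in 8 comparisons; red marks an adjusted p under 0.05. *Gch1* after injury is red in both genotypes, every genotype difference is grey, and the intervals of *Gchfr* are the widest.

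Sham mice allowed the operated side to be set against the other side of the same animal. *Gch1* was higher on the operated side in all 4 mice, by 1.27 and 1.29 times in the control and 1.41 times in each cKO mouse. The CPM were 6.12 against 4.83 and 7.32 against 5.66 in control mice, and 8.59 against 6.09 and 7.84 against 5.56 in cKO mice. The log2 difference over both genotypes was 0.43 ± 0.10 with an unadjusted p of 0.00348, and it missed the threshold over all genes (edgeR adjusted p = 0.386). With the mouse as a block it was likewise 0.43 and did not pass (edgeR adjusted p = 0.186). The other side differences given here come from the fit that took both sides of a mouse as separate samples. By edgeR 0 of 6 members were called, beside 0.00451% of all genes, and DESeq2 and limma on FPKM called 0 as well. An unadjusted p under 0.05 was reached by 2 of 6 members, and by 1675 of the 22160 genes tested.

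The other member was *Gchfr*, at 0.906 against 1.04 and 1.00 against 0.691 CPM in control mice and 1.57 against 0.746 and 1.26 against 0.715 CPM in cKO mice. It was higher on the operated side in 3 of 4 mice, and the log2 difference was 0.54 ± 0.20 (unadjusted p = 0.0246, edgeR adjusted p = 0.593). *Tph1* was higher there in 4 of 4 mice, though by 1.02 times only in cKO mouse 1 against 2.75 to 5.36 times in the other 3. Its log2 difference was 1.56 ± 0.35 (edgeR adjusted p = 0.344). *Atf3* also stood higher on the operated side in 4 of 4 mice, at 42.3 to 180 against 10.2 to 12.3 CPM, and lowest in cKO mouse 1. *Pts*, *Spr* and *Qdpr* differed between sides by at most 0.04 on the log2 scale, and *Pcbd1* by 0.15 ± 0.10. That *Pcbd1* difference was 0.0085 without cKO mouse 1 and 0.26 without cKO mouse 2.

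**Figure D4:**
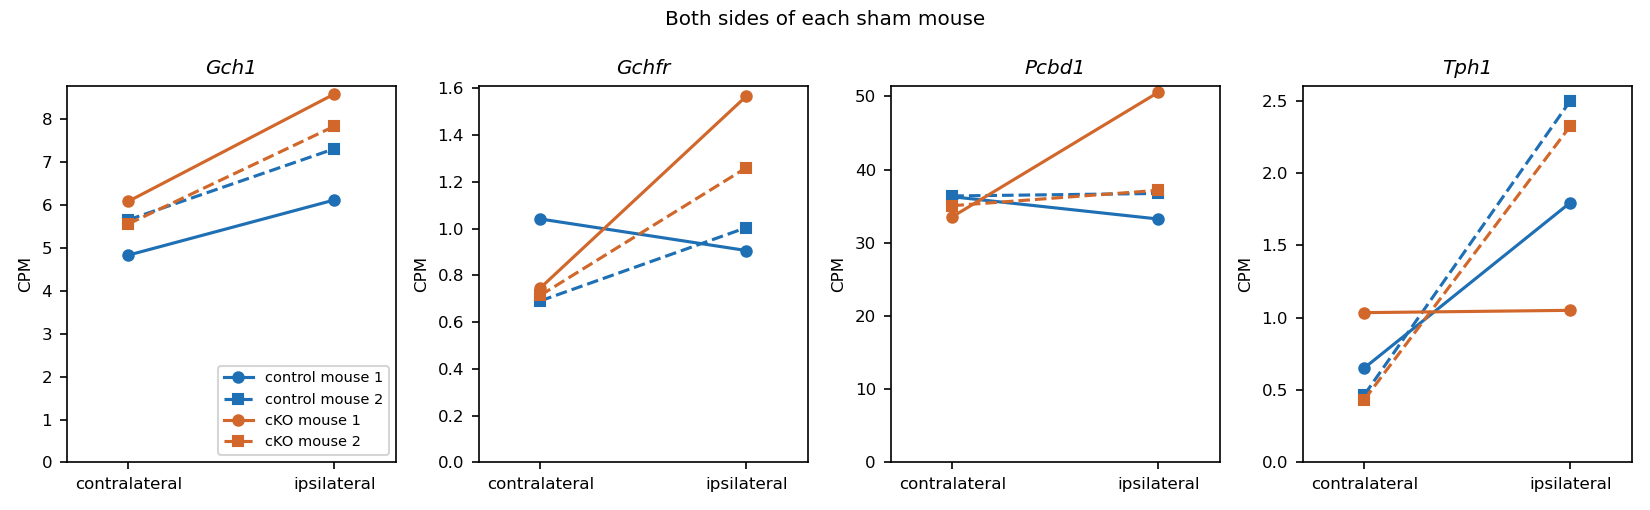
CPM on both sides of each of the 4 sham mice, joined by a line, for *Gch1*, *Gchfr*, *Pcbd1* and *Tph1*; blue for control and orange for cKO mice. The *Gch1* line rises in all 4 mice, whereas *Pcbd1* rises mainly in cKO mouse 1, from 33.5 to 50.5 CPM.

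Cultured neurons held the highest mean *Gch1* of all groups and the lowest means of the other 5 members. Mean *Gch1* was 30.0 ± 6.1 CPM (SD, n = 3) in control neurons, against 7.54 ± 0.54 in naive control ganglia and 5.25 ± 0.58 (n = 2) in sham contralateral control ganglia. *Pts* read 13.6 to 16.7 CPM in control neurons, 33.7 to 35.6 in naive control and 23.9 to 24.5 CPM in sham contralateral control ganglia. *Pcbd1* was 19.8 ± 0.41, 32.6 ± 1.7 and 36.3 ± 0.08 CPM in the same order. *Qdpr* was 44.6 ± 5.5, 74.3 ± 2.1 and 82.8 ± 1.9 CPM, and *Spr* was 42.1 ± 1.7, 54.1 ± 3.3 and 63.9 ± 2.4 CPM. *Gchfr* was near or below 1 CPM in each, at 0.460 ± 0.119, 0.592 ± 0.359 and 0.866 ± 0.248 CPM. Per kilobase of exon, *Gch1* (4.81) then lay above *Pts* (2.46), the reverse of their order in all 8 groups of ganglia. In the deposited FPKM, per gene span, *Pts* (2.10) stayed above *Gch1* (0.842) in control neurons.

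No test compares neurons with ganglia, because the libraries differ in culture, mice and scaling, and the naive ganglia are in another table. Such gaps exist between tables for ganglia too: *Akr1b3*, an alternative reductase, averaged 2.53 CPM in naive control and 23.5 CPM in sham contralateral control ganglia, and *Th* 49.3 and 159 CPM. *Akr1b3* shares its position with the antisense gene Gm14546, whose counts came to 102% of its own. Whether both tables were counted with the same settings is not given in the sources used here. Neither gap is read as a difference between ganglia. Among the users of BH4, inducible nitric oxide synthase *Nos2* averaged 7.89 CPM in control neurons against 0.219 CPM in naive and 0.308 CPM in sham contralateral control ganglia. Endothelial nitric oxide synthase *Nos3*, whose antisense gene had counts that came to 70.4% of its own, averaged 28.1, 4.12 and 4.51 CPM. Neuronal nitric oxide synthase *Nos1* was lower in the cultures, at 24.2, 105 and 81.1 CPM, as was *Agmo*, alkylglycerol monooxygenase, at 0.886, 8.65 and 3.24 CPM.

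The cultures were not neurons alone. All 6 neuron markers were detected in every culture library and summed to 3210 to 4020 CPM, against 5660 to 6760 CPM in naive ganglia. The 4 endothelial markers, all detected, summed to 852 to 1320 CPM in the cultures against 96.1 to 170 CPM in naive ganglia. The 6 macrophage markers summed to 175 to 192 against 118 to 152 CPM, but they did not move together. *Cx3cr1* (138 against 74.5 CPM, control neurons against naive control ganglia) and *Cd68* (16.8 against 5.43) were higher. *Mrc1* (0.886 against 17.0), *Csf1r* (16.6 against 33.8), *Adgre1* (4.25 against 8.91) and *Aif1* (0.498 against 2.24) were lower. Of the neuron markers, *Prph* (1170 against 779) and *Uchl1* (1040 against 611) were likewise higher, and the other 4 lower. The 5 markers of myelinating Schwann cells summed to 585 to 743 against 3180 to 5170 CPM. The 4 fibroblast markers summed to 167 to 282 against 460 to 806 CPM, but they did not move together either. *Dcn* (118 against 450 CPM, control neurons against naive control ganglia), *Col1a1* (42.9 against 115) and *Lum* (17.4 against 75.5) were lower. *Pdgfra* (55.7 against 32.4) was higher. The 4 satellite glia markers summed to 945 to 1820 against 1460 to 1660 CPM, and among them *Fabp7* (5.90 against 134 CPM, control neurons against naive control ganglia) and *Kcnj10* (7.21 against 128) were far lower. *Cdh19* (43.0 against 68.4) was less so, and *Apoe* (1240 against 1180), most of the sum, was not lower. Markers of red blood cells (3.07 to 19.4 against 175 to 392 CPM) and T cells (0.0919 to 0.194 against 0.650 to 1.26) were lower, and those of neutrophils overlapped (9.04 to 108 against 97.0 to 594). Their part in the levels of the BH4 genes was not tested. *Atf3* was as high in the cultures as in crushed ganglia, at 746 to 863 CPM.

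**Figure D5:**
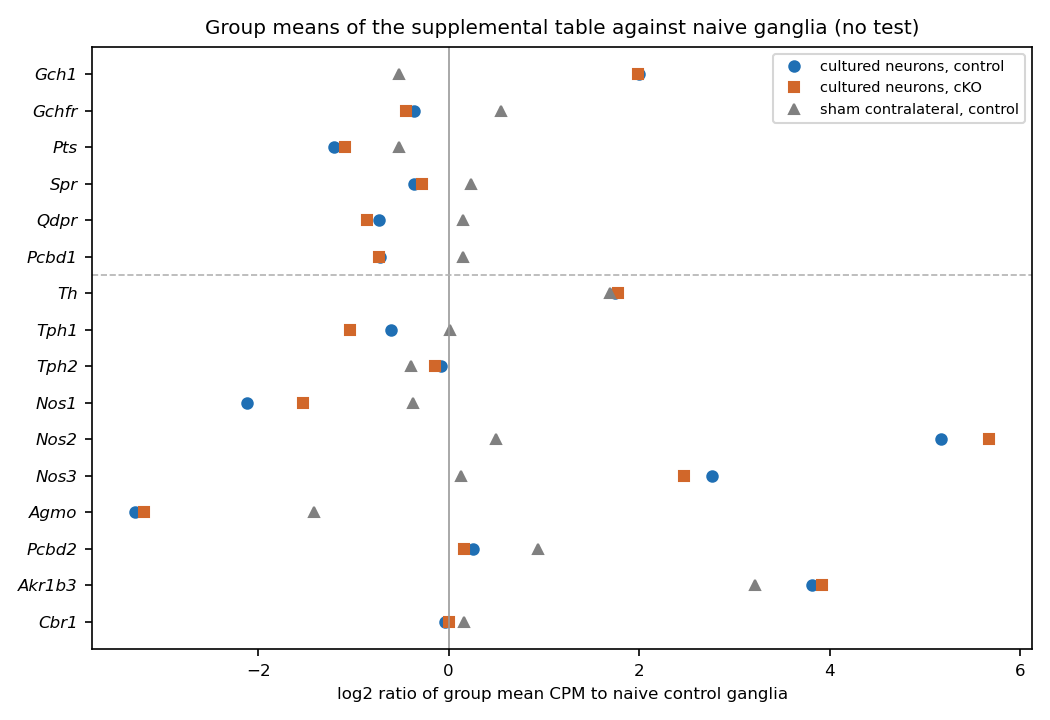
Log2 ratio of group mean CPM to that of naive control ganglia, for the 6 genes (above the line) and 10 related genes, in cultured control neurons (circles), cultured cKO neurons (squares) and sham contralateral control ganglia (triangles); no test was made. *Gch1*, *Nos2* and *Nos3* lie to the right in neurons, and *Th* and *Akr1b3* are also shifted in sham ganglia.

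Over the 10 group means, *Gch1* ran against the other 5 members, with correlations of log2 CPM of -0.64 to -0.86, whereas *Qdpr* and *Pcbd1* ran together at 0.97. These are descriptions over 10 points that share the gap between cultures and ganglia. By the same measure among 14123 genes, those most like *Gch1* were *Ggta1* (0.998), *Igsf9b* (0.993) and *Abi1* (0.993). *Ggta1* averaged 40.5 CPM in naive control, 68.6 in injured control and 110 CPM in control neurons. These CPM and the correlations used scaling factors set over all 26 libraries together. The closest to the others were *Tle6* for *Gchfr* (0.958), *Cd248* for *Pts* (0.996), *Atp8b2* for *Spr* (0.994), *Idh1* for *Qdpr* (0.991) and *Rxrg* for *Pcbd1* (0.991).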

How the data were processed

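The authors deposited 2 tables of read counts per gene, of 12 and 14 libraries, and matching FPKM tables. Libraries were TruSeq Stranded mRNA, per the labels' protocols, and Trim Galore, HISAT2, featureCounts and mm10 are named in the submitters' processing notes. The strand setting is not given in the sources used here, and genes that overlap are uncertain. The deposited FPKM divided counts by gene span, introns included (within 0.1% for 99.2% of 23694 genes checked). Symbols and coordinates come from GENCODE M21 (GRCm38), with 55141 genes matched.

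Counts were tested with edgeR 4.0.16 (R 4.3.3): filterByExpr (minimum count 10, total 15), TMM, quasi-likelihood test, 1 mean per group, two-sided, Benjamini-Hochberg adjustment over all genes tested, called under 0.05. Naive and injured (21261 genes), neuron (23295) and sham libraries (22160) were fitted separately. SE is the log2 fold change over the square root of F, and intervals are 95%. The related genes described are 10, and 2 more of the pathway are not reported here. The members and lists were chosen with earlier results of these data known. Genes named are the 6 members, related genes called or explained, *Ahr*, *Thy1*, *Atf3*, and those with the most similar group means (at least 1 CPM, prior count 2).

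Alternatives were DESeq2 1.42.0, limma 3.58.1 on log2(FPKM + 0.1), other factors, filters and thresholds, sex as a covariate, each group pair alone, a replicate block and leaving out each library. The mouse pairs the sham sides, per the labels; their deviations correlated at -0.159 in cKO and 0.229 in control mice. Same-numbered libraries correlated at -0.418 to 0.412 in naive and injured ganglia and at 0.0642 to 0.221 in neurons. The paired sham sides gave no more than 0.229, so this check cannot tell whether those numbers pair mice. Replicates differed beyond counting noise (chi-square per degree of freedom 3.32 to 39.9). Nothing says which cages or litters the mice came from. In the naive, injured and neuron fits, p-values measure the spread between mice. The main sham fit took both sides of each mouse as separate samples, so its p-values measure the spread between libraries.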

Additional observations from a re-analysis of the deposited data

Results flagged for a closer look

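For *Pts* the genotype difference ran in opposite directions in naive and in sham contralateral ganglia, with no overlap between genotypes in either: -0.166 and 0.139 on the log2 scale, cKO minus control. The difference between these settings was not tested, since they lie in separate fits.

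For *Pcbd1* the genotype difference was 0.327 on the sham ipsilateral and -0.0829 on the contralateral side, again without overlap in either. The test of that difference, genotype by side, gave 0.41 ± 0.19 (edgeR quasi-likelihood adjusted p = 1.00). Over 6 members and 10 pairs of settings, 60 such pairs were looked at. The sham groups have 2 mice each, and groups that small can separate by chance. The share of all genes with such opposite differences was not counted, so neither case is read as a difference between settings.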

How the results depend on the processing

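The rise of *Gch1* after crush passed the threshold under all 16 alternatives in each genotype, at 0.778 to 1.14 in control and 0.701 to 1.05 in cKO mice (edgeR, DESeq2 or limma, largest adjusted p = 0.000562 and 0.0116). The lower ends, 0.778 and 0.701, came from limma on log2(FPKM + 0.1), a scale that shrinks changes of low genes. The count of members called after crush was 2 in place of 1 in control mice with the replicate block (*Qdpr* joined, 0.153, adjusted p = 0.0427) and with limma on FPKM (*Spr* joined), and 2 in cKO mice at an adjusted p under 0.1 and with limma on FPKM (*Spr* joined in both). The replicate block changed no other member's call. No alternative gave a call in the other 7 comparisons. All sign changes were of values that passed no test, mostly near 0, and their cause was not tested. With the sex read from transcripts as a covariate, the crush response in cKO mice became -0.778 for *Gchfr*, 0.0827 for *Pts* and -0.0557 for *Pcbd1*, the genotype difference in injured ganglia -0.515 for *Gchfr*, 0.0771 for *Pts* and -0.0617 for *Pcbd1*, and the interaction -0.606 for *Gchfr*. With labelled sex, *Gchfr* after crush in cKO mice became -0.0253, and on FPKM *Pcbd1* there became -0.0148. In neurons *Gch1* became 0.00956 without a filter, 0.000539 with at least 10 counts in every library, 0.011 with the replicate block and 0.014 on FPKM.

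Leaving out each library in turn gave these ranges where the sign changed. After crush: *Gchfr* -0.511 to 0.41 in control mice, and in cKO mice *Gchfr* -0.048 to 0.531, *Pts* -0.108 to 0.000493, *Qdpr* -0.0232 to 0.0805 and *Pcbd1* -0.0409 to 0.0588. Interaction: *Gchfr* -0.194 to 0.728 and *Spr* -0.0773 to 0.0108. Genotype in naive ganglia: *Gchfr* -0.247 to 0.674, *Spr* -0.0637 to 0.0244 and *Qdpr* -0.0628 to 0.0235. In injured ganglia: *Gch1* -0.153 to 0.0723, *Pts* -0.103 to 0.0254 and *Pcbd1* -0.027 to 0.0673. In neurons: *Gch1* -0.14 to 0.144, *Gchfr* -0.363 to 0.134 and *Pcbd1* -0.0732 to 0.0384. In sham ipsilateral ganglia: *Spr* -0.13 to 0.00541 and *Qdpr* -0.0699 to 0.21. In sham contralateral ganglia: *Gchfr* -0.507 to 0.0777, *Spr* -0.0101 to 0.0813 and *Qdpr* -0.016 to 0.108. Sham side: *Pts* -0.0864 to 0.0999 and *Qdpr* -0.0256 to 0.0922. Counts limit *Gchfr* most, and 2 sham mice per genotype limit every sham comparison.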
